A study of Mus musculus with 10 samples.

Results

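A set of 10 chemokine genes that macrophages can express was followed in cultured peritoneal macrophages, Ccl2, Ccl3, Ccl4, Ccl6, Ccl7, Ccl9, Ccl12, Ccl24, Cxcl1 and Cxcl2. The genes were chosen by name and found by symbol among the 53465 genes of the count table, all 10 with a row of their own. Of these, 9 passed the filter on low counts and stood among the 13203 genes tested, and Ccl12 did not. RNA had been sequenced in bulk from 5 libraries of control mice (CTR) and 5 of Mac-GsαKO mice (KO), whose name says that macrophages lack Gsα. Gsα, the product of Gnas, is the G protein subunit that links receptors to adenylyl cyclase and so to cAMP. The mice were 6 to 8 weeks old in both groups, and the cells of both were kept in culture without further treatment. The labels give neither the alleles, the strain or the Cre driver of the KO, nor whether each library came from its own mouse, so SDs and p-values reflect how much libraries differ, which may be technical. The library numbers in the labels are all lower in KO than in CTR, and since their meaning is not given, a batch behind them and the genotype cannot be told apart.

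Chemokines are small secreted proteins that guide leukocytes along concentration gradients. They are grouped by the spacing of their first cysteines into CC and CXC ligands, and they act on receptors that couple to Gi proteins, which lower cAMP. In macrophages many chemokine genes are induced by NF-κB after contact with microbial products, and cAMP is known to modulate that induction in either direction depending on the gene. Others, such as Ccl6 and Ccl9, are transcribed in resting macrophages, and Ccl24 is known from alternatively activated macrophages.

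Gnas stood between 359 and 491 CPM (counts relative to the library total, adjusted by TMM) in the 5 CTR libraries and between 37.0 and 43.5 CPM in the 5 KO libraries. Totals ran from 15664243 to 19235777 counts per library, so that a count of 0 allows up to 3 counts or 0.154 to 0.203 CPM, for counting error only. Macrophage markers were high in both genotypes, with a summed level of 10 genes of 6894 to 8098 CPM in CTR against 7243 to 8695 CPM in KO. Cd68 was the highest of them. By the edgeR quasi-likelihood test 2 rose and none fell at an adjusted p under 0.05, where 3.94% of all genes passed. These were Csf1r (log2 ratio of KO to CTR 0.46, adjusted p = 0.0235) and Itgam (0.79, adjusted p = 0.0494). Of 21 other settings, 5 lost the call of Csf1r and 11 that of Itgam. By DESeq2 and by voom 2 rose and 1 fell (9.52% and 14.5% of all genes passed). In bulk RNA, fewer cells of a kind and less RNA per cell cannot be told apart. The first principal component separated the genotypes, with CTR at -34.7 to -6.85 and KO at 11.6 to 28.7. CTR 4 and CTR 5, both at -34.7, lay farthest from KO on it. On the second component CTR 4 stood apart, at -46.65 against -10.9 to 25.6 in the rest, with CTR 5 at 9.46. Results are given without CTR 4 and CTR 5 where they change, which takes out the CTR libraries farthest from KO on the first component. Mitochondrial genes took 1.39 to 1.97% of counts in CTR and 1.20 to 1.36% in KO, and 17894 to 18652 genes were detected in CTR and 18683 to 18985 in KO, so that both measures separated the genotypes. Their part in the differences given here was not tested.

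The sequence just upstream of the start site was looked at for the members that RefSeq promoters (build GRCm38.p6) cover, which were 6 of 10, Ccl3, Ccl6, Ccl9, Ccl12, Cxcl1 and Cxcl2. The table has no entry for 4, Ccl2, Ccl4, Ccl7 and Ccl24. Both strands of the 250 bases before the start were searched for the core CRE motif TGACG and the full CRE TGACGTCA, at which CREB acts downstream of cAMP, for the κB consensus of NF-κB, for the AP-1 site TGANTCA and for the STAT6 consensus. The full CRE contains the core, and a palindromic κB match can count on both strands. The windows of Cxcl1, Cxcl2 and Ccl9 are shown because they are the 3 of the 6 with a match, and capitals mark the matches.
Cxcl1 (chr5:90890995-90891244, plus strand): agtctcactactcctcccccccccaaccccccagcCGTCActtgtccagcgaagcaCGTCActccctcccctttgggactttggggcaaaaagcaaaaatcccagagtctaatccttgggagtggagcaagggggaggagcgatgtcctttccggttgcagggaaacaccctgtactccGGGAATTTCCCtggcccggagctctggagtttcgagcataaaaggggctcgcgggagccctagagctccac
Cxcl2 (chr5:90903649-90903898, plus strand): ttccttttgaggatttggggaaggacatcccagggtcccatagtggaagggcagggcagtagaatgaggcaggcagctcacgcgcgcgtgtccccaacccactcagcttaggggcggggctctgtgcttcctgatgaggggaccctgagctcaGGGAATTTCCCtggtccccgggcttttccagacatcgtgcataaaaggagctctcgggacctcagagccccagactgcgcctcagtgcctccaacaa
Ccl9 (chr11:83578637-83578886, minus strand): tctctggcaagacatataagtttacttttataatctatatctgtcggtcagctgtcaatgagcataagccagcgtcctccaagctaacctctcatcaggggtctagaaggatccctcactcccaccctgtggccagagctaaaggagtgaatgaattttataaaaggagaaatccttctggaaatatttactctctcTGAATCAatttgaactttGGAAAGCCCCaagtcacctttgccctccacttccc
Cxcl1 and Cxcl2, which neighbour each other on chromosome 5, both carry the κB match GGGAATTTCC, which begins 71 bases before the start in Cxcl1 and 97 bases before it in Cxcl2. Cxcl1 also has 2 matches to the core CRE motif, on the opposite strand, and Cxcl2 has none. Ccl9 has a κB match on the opposite strand and the AP-1 match TGAATCA. Of all 32851 promoter windows of this length, 17.8% hold the core CRE motif, 1.55% the full CRE, 7.25% the κB consensus, 6.75% the AP-1 site and 5.85% the STAT6 consensus. No full CRE and no STAT6 match lay in the 6 windows, which says only that these letters are not in them. A match is a description of the sequence, not a site in use.

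Between genes, levels were compared per kilobase of the gene length that the deposited FPKM imply. Ccl6 led the set in every library, at 696 ± 125 CPM per kilobase in CTR and 550 ± 71.8 in KO (SD, n = 5), and made up 71.0 ± 7.46% of the summed level of the 10 genes in CTR and 69.2 ± 4.19% in KO. Ccl9 came next, at 173 ± 76.1 CPM per kilobase in CTR and 149 ± 35.2 in KO, with ranges clear of both neighbours in the order. Ccl3, Ccl2, Ccl7 and Ccl4 followed, between 21.0 and 41.0 CPM per kilobase in CTR, and each overlapped the next in that order. Ccl24, at 4.30 ± 1.86 CPM per kilobase, overlapped Cxcl1, and Cxcl1 (1.35 ± 0.805), Cxcl2 (1.25 ± 1.02) and Ccl12 (0.689 ± 0.603) overlapped in turn. The order in KO was the same except that Ccl4 stood above Ccl7 and Cxcl2 above Cxcl1, and each of these pairs overlapped in both genotypes. These are levels of RNA in cells that were not stimulated.

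**Figure D1:**
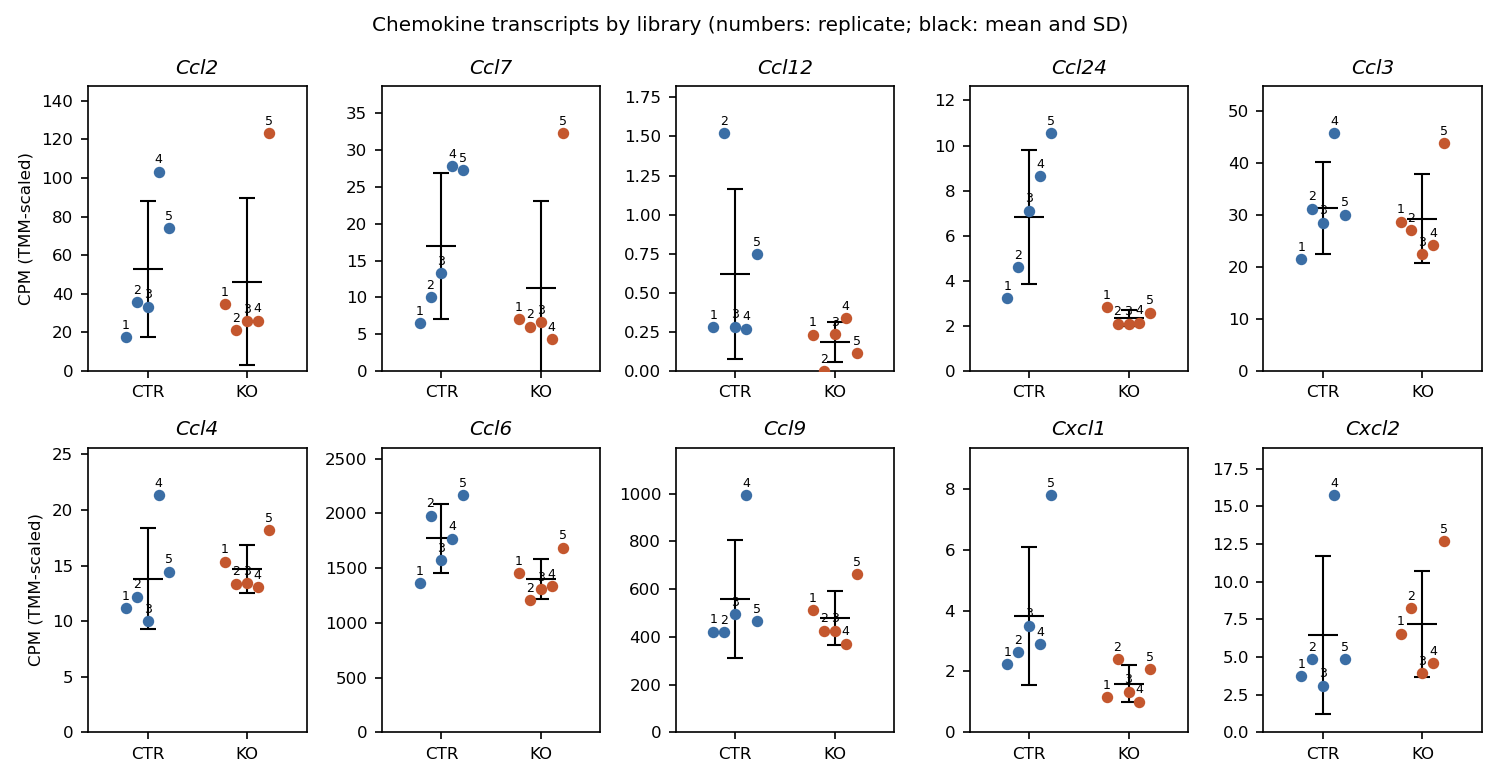
Level of each chemokine in CPM (vertical axes from 0, a scale for each gene) in the 5 CTR (blue) and 5 KO (orange) libraries, with the replicate number above each point and the mean and SD in black (bars are cut at 0). The 5 KO libraries of Ccl24 lie between 2.10 and 2.84 CPM, below all 5 CTR libraries, while in the other genes the genotypes overlap.

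Ccl24 was the 1 member that differed between the genotypes by the test, and it fell in KO. Its product is an eotaxin, a ligand of Ccr3 that attracts eosinophils. Ccl24 (ENSMUSG00000004814) stood at 3.24, 4.62, 7.11, 8.65 and 10.5 CPM in CTR 1 to CTR 5 and at 2.84, 2.10, 2.10, 2.14 and 2.58 CPM in KO 1 to KO 5. All 5 KO libraries were below all 5 CTR libraries, the CTR libraries were the more spread, and CTR 1 came close to KO 1. The mean fell from 6.83 ± 2.95 to 2.35 ± 0.341 CPM, a log2 ratio of KO to CTR of -1.53 (SE 0.29, edgeR quasi-likelihood test, adjusted p = 0.0195), or 2.89-fold lower. These values rest on 58 to 169 counts per CTR library and 36 to 49 per KO library. Of all genes tested 3.94% passed the same test, 1.83% of all genes higher and 2.11% lower in KO. The genotypes did not overlap in 7.8% of all genes, with KO below in 4.55%. Without CTR 4 and CTR 5, which held the highest values, the log2 ratio was -1.08 (adjusted p = 0.0284). The call was lost without CTR 3 (adjusted p = 0.0525), without KO 2 (0.0623) or without KO 4 (0.0523).

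The called markers of resident large peritoneal macrophages fell in KO, as Ccl24 did, while those of small peritoneal macrophages rose. Uncalled markers of both lists went either way in value. Of 11 tested markers of resident large peritoneal macrophages 6 fell and none rose by edgeR at an adjusted p under 0.05, where 3.94% of all genes passed. They were Timd4, Alox15, Serpinb2, Selp, Thbs1 and Ltbp1. The median log2 ratio of the 11 was -1.67. At an unadjusted p under 0.05, which 21.9% of all genes had, 8 were lower and 1 higher. By DESeq2 6 fell and 1 rose, and by voom 7 fell and 1 rose (9.52% and 14.5% of all genes passed). Cd5l (0.75, adjusted p = 0.122) and Icam2 (0.21, adjusted p = 0.584) were higher in value. Gata6 (-0.68, adjusted p = 0.179) did not pass by edgeR. The summed level of this list overlapped between the genotypes, at 417 to 883 CPM in CTR against 411 to 654 CPM in KO. Of 11 tested markers of small peritoneal macrophages 5 rose by edgeR and 7 by DESeq2 and by voom, where 3.94%, 9.52% and 14.5% of all genes passed. None fell by any of these tools. The 5 were Clec4b1, H2-Ab1, H2-Aa, Cd74 and Lyz1. At an unadjusted p under 0.05, which 21.9% of all genes had, 8 were higher and none lower. Itgax (-0.47, adjusted p = 0.438) and Ccr7 (-0.72, adjusted p = 0.458) were lower in value. Ccr2 (0.44, adjusted p = 0.332) did not pass by edgeR. The sums of this list were 1042 to 2995 CPM in CTR against 2914 to 4296 CPM in KO. The part of these markers in the fall of Ccl24 was not tested. Markers of eosinophils, the cells that Ccl24 attracts, summed to 3.65 to 7.88 CPM in CTR against 4.46 to 9.91 CPM in KO. Siglecf (4.59 ± 1.47 and 6.08 ± 2.11 CPM) and Ccr3 held most of that sum. Prg2, Epx, Ear1, Ear6 and Il5ra had means between 0 and 0.116 CPM in each genotype.

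Genes of alternative activation, the state from which Ccl24 is known, did not pass by edgeR as Ccl24 did. Of 9 tested, none rose and none fell by edgeR at an adjusted p under 0.05, where 3.94% of all genes passed. At an unadjusted p under 0.05, which 21.9% of all genes had, 1 was higher, Retnla, and 2 lower, Mrc1 and Tgm2. DESeq2 and voom called the same counts, 1 higher and 2 lower, where 9.52% and 14.5% of all genes passed. Arg1, the arginase, stood at 2582 ± 1293 CPM in CTR against 3211 ± 1108 CPM in KO (adjusted p = 0.593). Mrc1, the mannose receptor, stood at 389 ± 67.4 and 293 ± 34.4 CPM (log2 ratio -0.41, adjusted p = 0.0881). Il4ra, a chain of the interleukin receptor that drives this state, stood at 116 ± 19.1 and 107 ± 12.8 CPM (adjusted p = 0.650). Retnla stood at 5.94 ± 3.25 and 12.5 ± 4.79 CPM (log2 ratio 1.08, adjusted p = 0.0949). Tgm2 stood at 139 ± 51.5 and 74.1 ± 18.2 CPM (log2 ratio -0.91, adjusted p = 0.0768).

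Cxcl1 was lower in KO in value but did not pass. Its product attracts neutrophils through Cxcr2. Cxcl1 (ENSMUSG00000029380) stood at 2.23, 2.63, 3.50, 2.91 and 7.79 CPM in CTR 1 to CTR 5 and at 1.16, 2.41, 1.34, 1.01 and 2.07 CPM in KO 1 to KO 5. KO 2 exceeded CTR 1, and CTR 5 stood alone above the rest. The summed mesothelial markers were also highest in CTR 5, at 69.1 CPM against 11.4 to 40.8 CPM in the other CTR libraries, and among KO libraries (23.8 to 35.1 CPM) in KO 2. Fibroblast markers summed to 394 CPM in CTR 5, against 210 to 274 CPM in the other CTR libraries. Among KO libraries (108 to 195 CPM) their sum was highest in KO 3, with KO 2 at 149 CPM. Pdpn was the highest gene of that list, and it fell by edgeR from 206 ± 31.1 to 95.2 ± 27.3 CPM (adjusted p = 0.0132). Of 6 fibroblast markers tested, 1 fell and none rose by edgeR, where 3.94% of all genes passed. Col1a2, for one, stood at 25.7 ± 17.8 and 23.0 ± 3.79 CPM (adjusted p = 0.813). Summed markers of macrophages (8098 CPM) and of resident large peritoneal macrophages (883 CPM) were also highest of CTR in CTR 5. Among KO, the macrophage sum was highest in KO 1 (8695 CPM) and the resident sum in KO 3 (654 CPM). The part of these markers in the Cxcl1 values was not tested. The log2 ratio of Cxcl1 was -1.24 (SE 0.37, adjusted p = 0.0801), with a 95% interval of -2.05 to -0.44, and -0.81 without CTR 5. With the DESeq2 Wald test (-1.24, adjusted p = 0.0196) and with voom (-0.99, adjusted p = 0.0439) it passed, where 9.52% and 14.5% of all genes did. Cxcl2, its neighbour and a ligand of the same receptor, gave no such difference. Cxcl2 (ENSMUSG00000058427) stood at 3.74, 4.85, 3.10, 15.7 and 4.86 CPM in CTR 1 to CTR 5 and at 6.55, 8.25, 3.91, 4.61 and 12.7 CPM in KO 1 to KO 5. The single high library of each genotype, CTR 4 and KO 5, set its spread, and the log2 ratio was 0.17 (SE 0.45, 95% interval -0.80 to 1.14, adjusted p = 0.856). Without CTR 4 and CTR 5 it was 0.89 (adjusted p = 0.153). Whether Cxcl1 and Cxcl2 differ in their response was not tested.

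The ligands of Ccr2 that recruit monocytes, Ccl2, Ccl7 and Ccl12, varied more between libraries of a genotype than between the genotypes. Ccl2 (ENSMUSG00000035385) stood at 17.5, 35.8, 33.2, 103 and 74.1 CPM in CTR 1 to CTR 5 and at 34.5, 21.2, 25.9, 26.0 and 123 CPM in KO 1 to KO 5. Its highest library was KO 5 and its lowest CTR 1, and the genotypes overlapped. The log2 ratio was -0.19 (SE 0.55, adjusted p = 0.866), and its 95% interval ran from -1.38 to 1.00. It was 0.67 without CTR 4 and CTR 5 (adjusted p = 0.497) and -0.97 without KO 5 (adjusted p = 0.213). Ccl7 (ENSMUSG00000035373), which lies next to Ccl2 on chromosome 11, stood at 6.48, 9.99, 13.3, 27.8 and 27.3 CPM in CTR and at 7.07, 5.99, 6.59, 4.28 and 32.3 CPM in KO, by replicate number. KO 1 to KO 4 lay at or near the lowest CTR library and KO 5 above all. Its log2 ratio was -0.59 (SE 0.56, adjusted p = 0.573), -1.50 without KO 5 (adjusted p = 0.0639) and 0.17 without CTR 4 and CTR 5 (adjusted p = 0.888). Ccl12 (ENSMUSG00000035352) had 4 to 26 counts per CTR library and 0 to 6 per KO library, most of them near the limit of 3 counts, and was not tested.

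The inflammatory CC ligands that are quickly induced in macrophages, Ccl3 and Ccl4, were near equal in mean. Ccl3 (ENSMUSG00000000982) stood at 21.5, 31.2, 28.6, 45.7 and 30.0 CPM in CTR and at 28.7, 27.1, 22.4, 24.1 and 43.9 CPM in KO, by replicate number. Its log2 ratio was -0.10 (SE 0.21, adjusted p = 0.813), with a 95% interval of -0.56 to 0.36. Ccl4 (ENSMUSG00000018930) stood at 11.2, 12.2, 9.99, 21.4 and 14.5 CPM in CTR and at 15.4, 13.4, 13.4, 13.1 and 18.2 CPM in KO. As for Ccl3, CTR 4 and KO 5 were the highest libraries of their genotypes. The log2 ratio of Ccl4 was 0.09 (SE 0.19, adjusted p = 0.820, 95% interval -0.33 to 0.51), and 0.40 without CTR 4 and CTR 5 (adjusted p = 0.0851).

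Ccl6 and Ccl9, the CC ligands that neighbour each other and act on Ccr1, held most of the chemokine RNA. Ccl6 (ENSMUSG00000018927) stood at 1363, 1979, 1576, 1770 and 2169 CPM in CTR and at 1456, 1211, 1311, 1336 and 1688 CPM in KO, by replicate number. KO 2, KO 3 and KO 4 lay below all of CTR, and KO 1 and KO 5 within its range. The mean was 1772 ± 319 CPM in CTR against 1400 ± 183 CPM in KO, a log2 ratio of -0.34 (SE 0.13, 95% interval -0.63 to -0.05, adjusted p = 0.158), which did not pass. Ccl9 (ENSMUSG00000019122) stood at 421, 419, 494, 994 and 465 CPM in CTR and at 512, 426, 426, 372 and 661 CPM in KO. CTR 4 stood alone at 994 CPM, and the other CTR libraries lay within the KO range. The log2 ratio of Ccl9 was -0.22 (SE 0.24, adjusted p = 0.628) with all libraries and 0.09 without CTR 4 (adjusted p = 0.752).

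Over the 9 members tested, 1 fell and none rose by edgeR at an adjusted p under 0.05, where 3.94% of all genes passed. At an unadjusted p under 0.05, 3 were lower and none higher. Of all genes 21.9% had such an unadjusted p, 11.9% of all genes with KO lower. By DESeq2 and by voom 2 fell and none rose, Ccl24 and Cxcl1, where 9.52% and 14.5% of all genes passed. In value 7 of the 9 were lower and 2 higher, against 6713 lower and 6490 higher of all 13203 genes tested. The median log2 ratio of the 9 was -0.22, against -0.01 over all genes tested. That median was 0.11 without CTR 4 and CTR 5 and 0.07 without CTR 4. Without CTR 4 and KO 5, a choice made after the values were seen, 1 member passed, again Ccl24 (-1.46, adjusted p = 0.0290).

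**Figure D2:**
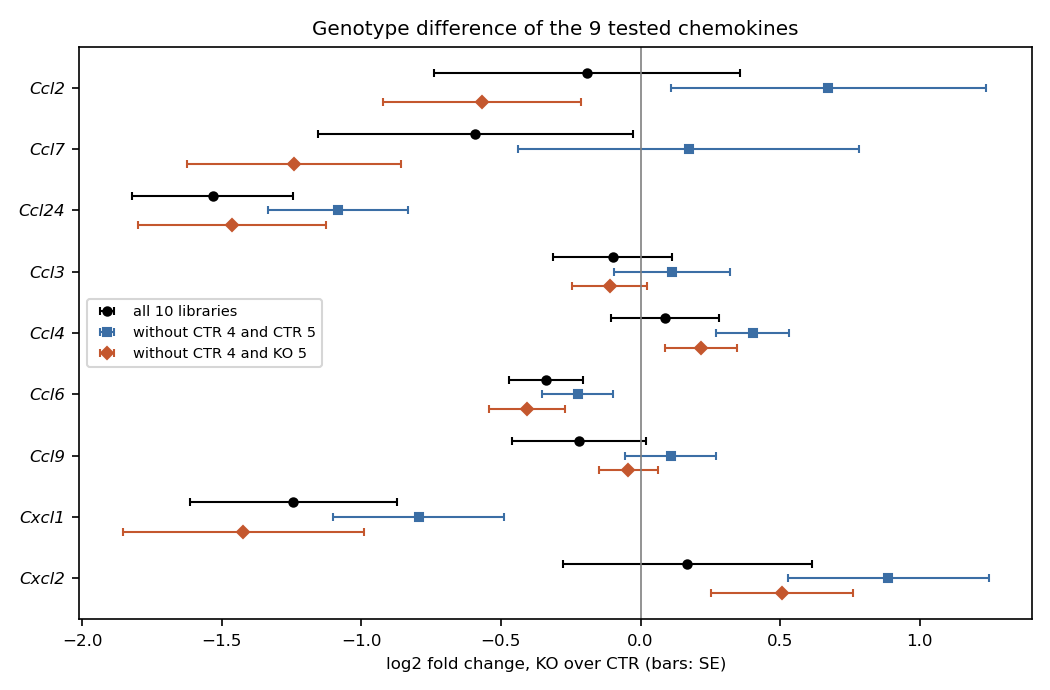
Log2 ratio of KO over CTR (horizontal axis, bars are SE) for the 9 tested chemokines with all 10 libraries (black), without CTR 4 and CTR 5 (blue) and without CTR 4 and KO 5 (orange). Ccl24 lies between -1.53 and -1.08 in the 3 fits, while Ccl2 moves from -0.57 to 0.67.

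Libraries of both genotypes carried high chemokine levels together. CTR 4 was the highest CTR library for 6 of the 9 tested members, Ccl2, Ccl3, Ccl4, Ccl7, Ccl9 and Cxcl2. KO 5 was the highest KO library for the same 6 and for Ccl6. CTR 5 was the highest for the other 3, Ccl6, Ccl24 and Cxcl1, and CTR 1 the lowest of its genotype for 6 of 9. Ccl24 and Cxcl1 did not peak in CTR 4 or KO 5. Immediate early and heat shock genes, which respond to stress and handling, summed to 2240 CPM in CTR 4, against 1443 to 1739 CPM in the other CTR libraries, and to 2211 CPM in KO 5, against 1707 to 1993 CPM in the other KO libraries. Early NF-κB genes summed to 1585 CPM in CTR 4 (1306 to 1546 CPM in the others of its genotype) and to 1616 CPM in KO 5 (1475 to 1597 CPM). Of these, Tnf, an early NF-κB target, also had its highest value of each genotype in CTR 4 (18.0 CPM) and KO 5 (24.4 CPM), against 6.09 to 11.0 CPM in the other CTR and 10.4 to 15.8 CPM in the other KO libraries. Other genes of this list went the other way. Socs3 had its lowest value of each genotype in CTR 4 (13.3 CPM) and KO 5 (15.45 CPM). Zfp36 (75.9 CPM) and Gadd45b (123 CPM) had their lowest KO value in KO 5. The summed neutrophil markers were highest of each genotype in CTR 4, with 436 CPM, and KO 5, with 340 CPM, against 142 to 246 and 219 to 317 CPM in the other libraries. Csf3r, Mmp8 and Mmp9 held most of that sum. Mmp9 alone ran from 20.4 to 233 CPM in CTR (median 26.7) and from 39.9 to 167 CPM in KO (median 112). S100a8 (19.1 ± 2.44 CPM in CTR against 13.0 ± 2.26 CPM in KO) and Retnlg (4.42 ± 3.10 and 4.06 ± 4.19 CPM) were also detected. Of the 13 markers Ly6g and Ngp were at 0 in all libraries, and S100a9, Cxcr2, Elane, Mpo and Camp had means between 0 and 0.400 CPM in each genotype. Macrophage markers were lowest in CTR 4, with 6894 CPM, and KO 5, with 7243 CPM. Other lists were high in CTR 4 only. Genes of alternative activation had their highest CTR sum in CTR 4 (5267 CPM) but their lowest KO sum in KO 5 (2591 CPM). Small peritoneal macrophage markers had their highest CTR sum in CTR 4 (2995 CPM). Their highest KO sum was in KO 4 (4296 CPM), with KO 5 at 3341 CPM. The part of these genes and markers in the high values was not tested.

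**Figure D3:**
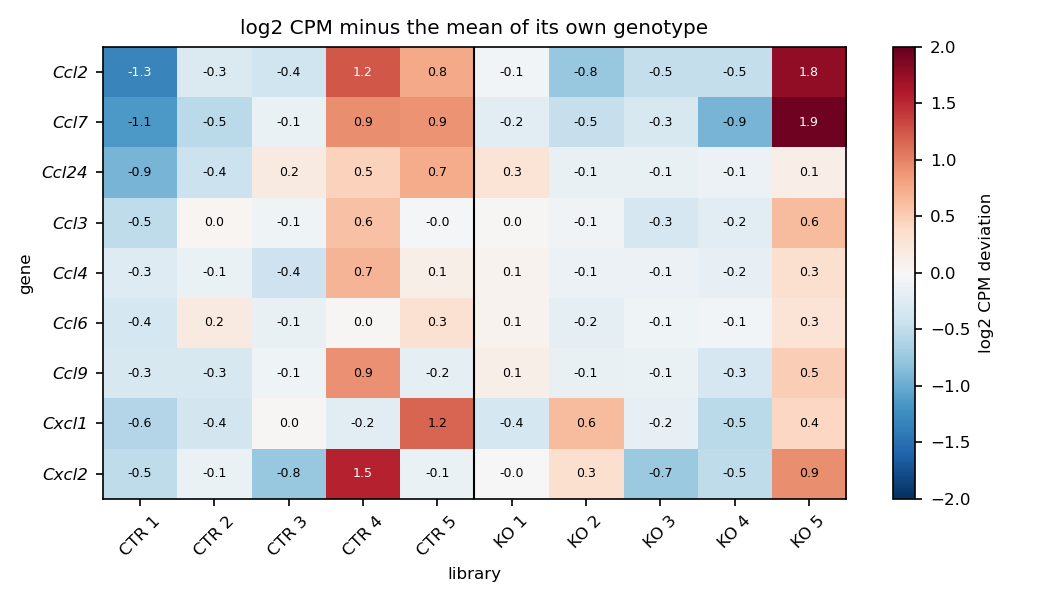
Deviation of log2 CPM from the mean of the library's own genotype (colour and printed value) for the 9 tested chemokines (rows) in the 10 libraries (columns). CTR 4 and KO 5 are red for Ccl2, Ccl7, Ccl3, Ccl4, Ccl9 and Cxcl2, and Ccl24 varies mostly among the CTR libraries.

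The genes most like a member were sought among 8186 protein-coding genes, by Pearson's r over the 10 libraries after the mean of each genotype was taken off. For Ccl2 the closest gene was its neighbour Ccl7 (r = 0.96, rho = 0.84), followed by Thyn1 and Chchd1. For Ccl3 the closest were Psat1 and Prune2, then Tnf (r = 0.95, rho = 0.93). For Ccl24 they were Coq7 (r = 0.94, rho = 0.89), Akt1 and Park7, and none of these 3 passed the genotype test. The values share libraries and depth, and they serve as a description only.

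Among 26 other chemokine ligands, 11 were tested. By edgeR, by DESeq2 and by voom 1 fell and none rose, where 3.94%, 9.52% and 14.5% of all genes passed. At an unadjusted p under 0.05, which 21.9% of all genes had, 2 were lower and none higher. The gene called was Pf4, which encodes a CXC ligand best known from platelets and also expressed by macrophages. Pf4 (ENSMUSG00000029373) stood at 107, 79.5, 111, 147 and 150 CPM in CTR 1 to CTR 5 and at 36.2, 54.9, 57.6, 42.8 and 31.4 CPM in KO 1 to KO 5. All KO libraries lay below all CTR libraries. Its log2 ratio was -1.41 (SE 0.20, adjusted p = 0.00666), and it kept an adjusted p of at most 0.0383 in all 21 other settings. The other 6 platelet markers were low, with Gp9 at 0 counts in all libraries and Treml1 the highest, at 0.970 ± 0.490 CPM in CTR against 1.49 ± 0.417 CPM in KO (adjusted p = 0.320). The means in CTR and KO were 0.373 and 0.226 CPM for Itga2b, 0.243 and 0.303 for Gp1ba, 0.0487 and 0.338 for Tubb1, and 0.0236 and 0.0232 for Ppbp. Their part in the fall of Pf4 was not tested. Cxcl16, a transmembrane chemokine that also binds oxidised lipoprotein, stood at 66.4 ± 18.9 CPM in CTR against 58.3 ± 6.23 CPM in KO (log2 ratio -0.19, adjusted p = 0.562). Ccl8, another ligand gene of the Ccl2 cluster, stood at 17.2 ± 7.39 and 12.7 ± 2.02 CPM (-0.44, adjusted p = 0.336), and Cxcl14 at 4.93 ± 0.841 and 3.25 ± 1.52 CPM (-0.60, adjusted p = 0.209). Ccl5 (0.47, adjusted p = 0.321) and Ccl22 (0.94, adjusted p = 0.262) were higher in value.

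The receptors that these ligands use were present at unequal levels, and none of 10 tested (of 23 listed) passed by edgeR, where 3.94% of all genes did. At an unadjusted p under 0.05, which 21.9% of all genes had, 1 was higher and 2 lower. DESeq2 and voom each called 1 higher and 1 lower (9.52% and 14.5% of all genes passed). Ccr1, the receptor of Ccl3, Ccl6 and Ccl9, stood at 217 ± 32.0 CPM in CTR against 187 ± 24.8 CPM in KO (log2 ratio -0.21, SE 0.12, adjusted p = 0.334). The monocyte receptor Ccr2, which binds Ccl2, Ccl7 and Ccl12, was low at 4.50 ± 1.75 and 6.12 ± 1.00 CPM (0.44, SE 0.25, adjusted p = 0.332). Ccr3, the receptor of Ccl24, was at 1.05 ± 0.920 and 1.06 ± 1.07 CPM, and Cxcr2, the receptor of Cxcl1 and Cxcl2, at 0.311 ± 0.101 and 0.400 ± 0.310 CPM and not tested. Cxcr4, the receptor of Cxcl12, stood at 199 ± 13.5 and 164 ± 15.7 CPM (-0.28, SE 0.09, adjusted p = 0.0881). Ccrl2, which binds chemerin without signalling, stood at 123 ± 14.8 and 106 ± 7.90 CPM (-0.22, SE 0.10, adjusted p = 0.223).

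**Figure D4:**
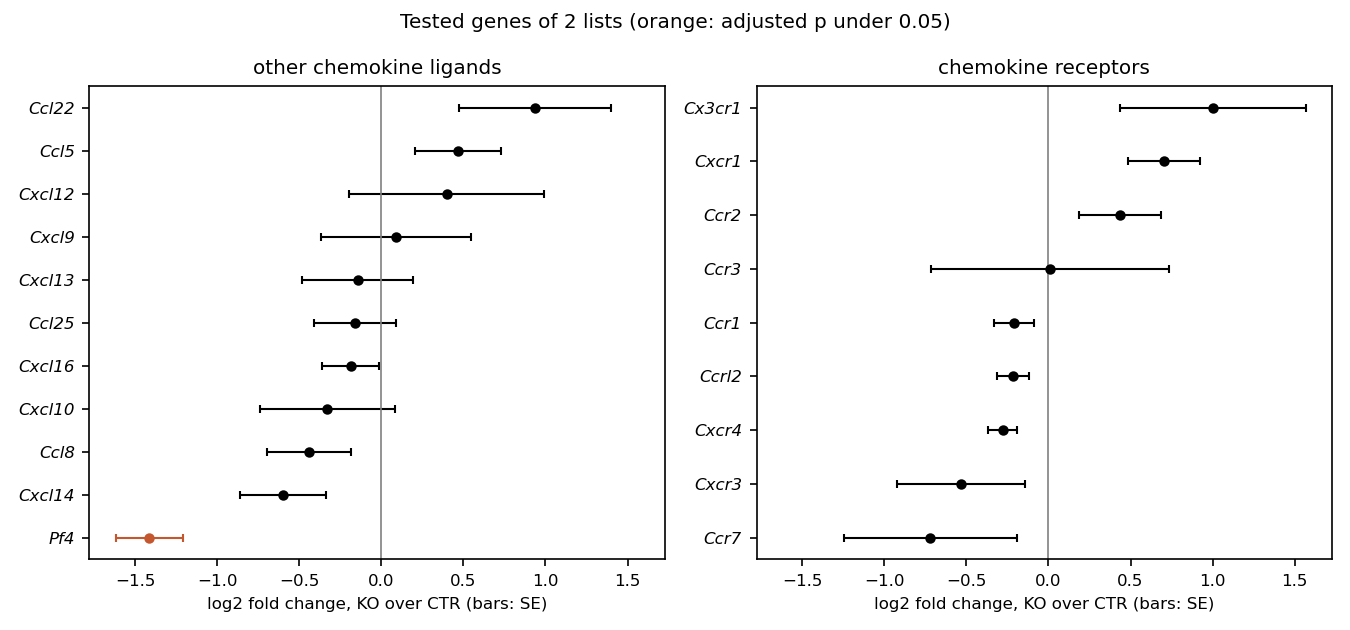
Log2 ratio of KO over CTR (horizontal axes, bars are SE) for the 11 tested ligands outside the set (left) and 9 of the 10 tested receptors (right), with orange for an adjusted p under 0.05. Pf4, at -1.41, is the gene in orange.

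Among 19 genes of chemokine receptor signalling, all tested, 1 rose and none fell by edgeR, where 3.94% of all genes passed. By DESeq2 and by voom 2 rose and none fell (9.52% and 14.5% of all genes passed). At an unadjusted p under 0.05, which 21.9% of all genes had, 4 were higher and none lower. Prex1, an exchange factor that activates Rac downstream of these receptors, rose from 106 ± 23.8 to 158 ± 8.69 CPM (log2 ratio 0.58, SE 0.14, adjusted p = 0.0406). It no longer passed when CTR 3, CTR 5 or 1 KO library, whichever, was left out (adjusted p up to 0.101), nor with no filter (0.0729). Gnai2, the Gi subunit, stood at 919 ± 44.7 and 953 ± 38.8 CPM (0.05, adjusted p = 0.702), Rac1 at 477 ± 35.3 and 482 ± 6.53 CPM, and Gnb1 at 430 ± 21.3 and 386 ± 17.2 CPM (-0.15, adjusted p = 0.228).

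Early NF-κB response genes, with which several of these chemokines are known to be induced, gave calls in both directions. Of 23 tested, 2 rose and 1 fell by edgeR, where 3.94% of all genes passed, with a median log2 ratio of 0.17. By DESeq2 2 rose and 1 fell (9.52% of all genes passed), and by voom 7 rose and 1 fell (14.5%). Zfp36, which encodes a protein that destabilises cytokine and chemokine mRNA, rose from 66.8 ± 5.82 to 91.6 ± 14.5 CPM (0.46, SE 0.12, adjusted p = 0.0485), and Gadd45b, a stress response gene, from 113 ± 8.86 to 170 ± 28.9 CPM (0.59, SE 0.12, adjusted p = 0.0246). The cytokine gene Il1a fell from 60.3 ± 7.26 to 44.7 ± 4.74 CPM (-0.43, SE 0.11, adjusted p = 0.0437). When CTR 3, KO 1, KO 2 or KO 4 was left out, each of the 3 missed the threshold, at most reaching an adjusted p of 0.133 for Zfp36, 0.0739 for Gadd45b and 0.124 for Il1a. Zfp36 missed it also without CTR 1, CTR 2 or CTR 4, and Il1a without CTR 1, CTR 2 or KO 3. With no filter on low counts Il1a (adjusted p = 0.0729) and Zfp36 (0.0877) missed it, and Il1a did so with library size only (0.0736) and with the length correction (0.0774). Tnfaip2 (-0.04, adjusted p = 0.839) and Sod2 (-0.23, adjusted p = 0.245) were among the most abundant of this list. Of 15 immediate early and heat shock genes tested, 1 rose by edgeR, the transcription factor gene Egr3, from 0.677 ± 0.347 to 1.87 ± 0.585 CPM (1.45, SE 0.36, adjusted p = 0.0443). By DESeq2 2 rose and by voom 5, where 9.52% and 14.5% of all genes passed. At an unadjusted p under 0.05, which 21.9% of all genes had, 5 were higher. None fell by these 3 tools or was lower at an unadjusted p under 0.05. Egr3 missed the threshold when CTR 1, CTR 3, CTR 4, CTR 5 or 1 KO library, whichever, was left out (adjusted p up to 0.117) and without CTR 4 and CTR 5 (0.0860) or without CTR 4 and KO 5 (0.0572), and with no filter (0.0799). Atf3 (0.35, adjusted p = 0.121), Jun (0.27, adjusted p = 0.195) and Hspa8 (-0.16, adjusted p = 0.666) were the most abundant.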

How the data were processed

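RNA of 10 libraries was measured by bulk sequencing. Per the submitters' processing notes, CASAVA 1.8, HISAT2, SAMtools 1.3.1, edgeR and the build GRCm39 were used, with no role or order; counter, annotation and strand setting remain not given in the sources used here. Raw values came as the authors deposited them, counts per Ensembl gene and FPKM. FPKM were used only to recover the authors' gene lengths, and they equal counts per length and library total within a relative deviation of 1.8e-05 where a gene had at least 50 counts. Symbols came from a table of gene names, and 191 identifiers had none.

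Counts were tested in R 4.3.3 with edgeR 4.0.16 (filterByExpr, TMM, quasi-likelihood test, genotype as the only term), two-sided, with Benjamini-Hochberg adjustment over all 13203 genes tested and a threshold of 0.05. The filter kept 99.9% of the counts. SE is the size of the log2 ratio divided by the root of F. Alternatives were another scaling (size factors of DESeq2, or library size alone), another filter (none, or 5 libraries with a CPM of 1 or more), a Wald test in DESeq2 1.42.0, limma 3.58.1 voom with quality weights, a robust fit, a replicate block, each library left out, CTR 4 and CTR 5 left out, and a correction for gene length (mgcv 1.9.3). Leaving out CTR 4 and KO 5 was added after the values were seen. The members and lists were chosen with earlier results of these data known, so no p-value over the list is given.

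The rule for named genes took all 10 members, then in the other ligand, receptor, signalling, NF-κB, immediate early and alternative activation lists the called genes and the most abundant (6 ligands, 4 receptors, 3 of each other list), and for each member the 3 genes most like it among those with an average log2 CPM of at least 3, some of which are given. A result that the rule takes is not reported here. Ccr2, Ccr3, Cxcr2, Tnf, Socs3, Retnla, Tgm2 and the cell type markers were named outside it, after their values were seen. Reads of similar chemokine genes may be assigned to either copy. Motifs were searched by exact match in RefSeq promoters of another build than the authors', so no coordinates of the count table are given.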

Additional observations from a re-analysis of the deposited data

Results flagged for a closer look

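In 20 groups of 5 libraries, 10 chemokines in 2 genotypes, 5 held a library whose gap to the nearest other exceeded 0.71 of the range, the 95% critical value of Dixon's test, which chance passes in about 1 of 20 groups. The libraries are shared between the genes, so these are not independent. Ccl2 stood at 123 CPM in KO 5, against 34.5 CPM in the next KO library. Ccl7 stood at 32.3 CPM in KO 5, against 7.07 CPM in the next. Ccl9 stood at 994 CPM in CTR 4, against 494 CPM in the next CTR library, and Cxcl2 at 15.7 CPM in CTR 4, against 4.86 CPM. Cxcl1 stood at 7.79 CPM in CTR 5, against 3.50 CPM in the next. The fall of Ccl24 rests on none of these libraries alone, since its adjusted p was 0.0208 without CTR 4, 0.0296 without CTR 5 and 0.0275 without KO 5.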

How the results depend on the processing

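Ccl24 kept its direction in all 21 other settings, with log2 ratios from -1.71 to -1.08, and lost its call in 4 of them, 3 with a library left out, given above, and the replicate block (-1.44, adjusted p = 0.0607). Ccl6 (-0.42 to -0.23) and Cxcl1 (-1.44 to -0.79) also kept theirs. Leaving out 1 library, the members called ranged from 0 to 1, the calls over all genes from 62 to 868, those higher in KO from 32 to 484 and those lower from 30 to 384. Members called were 2 with DESeq2 and with voom and 0 with the replicate block. Calls over all genes (higher, lower) were 520 (241, 279) as reported, 261 (122, 139) with no filter, 1265 (591, 674) with DESeq2, 1919 (1026, 893) with voom, 104 (59, 45) with the replicate block, 1185 (694, 491) without CTR 4 and CTR 5, and 1042 (590, 452) without CTR 4 and KO 5. With library size only 59.4% of calls were higher in KO, against 46.3% with TMM. Residuals of equal replicate numbers correlated from -0.126 to 0.0582 across genes, so the numbers were not taken as pairs. With the replicate block Prex1 (adjusted p = 0.0688), Gadd45b (0.0688), Il1a (0.114), Zfp36 (0.124) and Egr3 (0.116) also missed the threshold. The sign of uncalled members changed as follows. Without CTR 4 and CTR 5 the log2 ratio was 0.67 for Ccl2, 0.11 for Ccl3, 0.17 for Ccl7 and 0.11 for Ccl9, and without CTR 4 it was 0.19, 0.072 and 0.090 for Ccl2, Ccl3 and Ccl9. With voom it was 0.070 for Ccl2 and 0.0074 for Ccl3. Without CTR 3 it was -0.010 for Ccl4 and -0.014 for Cxcl2, and without KO 5 -0.00093 and -0.14. Leaving out 1 library, it ranged from -0.97 to 0.19 for Ccl2, -0.29 to 0.072 for Ccl3, -0.010 to 0.30 for Ccl4, -0.36 to 0.090 for Ccl9 and -0.14 to 0.80 for Cxcl2. The cause was not tested. Depth limits Ccl12, Ccl24 and Cxcl1, whose counts are low.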
